A study of Mus musculus with 23 samples.

Results

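The 10 heat shock chaperone genes described here were Hspa1a, Hspa1b, Hspa8, Hsph1, Dnajb1, Hsp90aa1, Hsp90ab1, Hspa5, Hspe1 and Hspd1. They were chosen as a family by gene symbol, with earlier results of these data known, and each matched 1 of the 33280 genes in the count table. RNA came from mouse brain macrophages sorted 1 day after a thromboembolic stroke, in which thrombin injected into the middle cerebral artery forms a clot. All mice carried Ccr2creERT2/+ R26tdT/tdT, so that tamoxifen turns on tdTomato (tdT), a red protein, where Ccr2 is active at that time, mainly in monocytes, and all descendants keep the mark. They had been gavaged for 7 days with vehicle (CTL) or with BLZ945 at 200 mg per kg, an inhibitor of the CSF1 receptor that depletes brain macrophages. Tamoxifen followed from the last gavage day on, and the stroke came 8 weeks after gavage.

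The 23 libraries fell into 5 groups. Microglia (MG, sorted as CD206-) gave 5 libraries from CTL mice and 5 from BLZ945 mice. CD206+ macrophages of the leptomeninges and perivascular spaces, called subdural CNS-associated macrophages (sdCAMs), gave 5 tdT- CTL, 5 tdT- BLZ945 and 3 tdT+ BLZ945 libraries. Replicates are named F1, F2, F3, M1 and M2 as in the labels, and tdT+ BLZ945 has F2, F3 and M2 only. Within a treatment the same name marks the same animal or animals. CTL libraries came from 1 animal each, whereas cells of 2 mice were combined per BLZ945 replicate by the study's methods, so pooling and treatment cannot be told apart. The sources conflict on F2, since its library names carry 1 animal number only, and that number recurs beside another in the M1 names, although the F2 libraries held 1045 to 2302 counts of Xist and the M1 libraries 0. How many animals F2 holds is therefore not known. The tdT mark reports Ccr2 expression around the days of tamoxifen, so a tdT- cell is an unlabelled cell and not one of known origin. Every library was taken after stroke and after enzymatic digestion and sorting, so the levels have no unoperated or undigested reference among these 23 libraries.

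Heat shock chaperones bind unfolded or partly folded proteins and help them to fold or to be degraded. HSP70 proteins hold short stretches of unfolded chain in cycles of ATP hydrolysis that are started by J-domain partners and reset by nucleotide exchange factors, and HSP90 proteins act later on clients such as kinases and steroid receptors. Heat, oxidants and other stresses free the transcription factor HSF1, which binds inverted repeats of GAA in the promoters of inducible chaperone genes, whereas the endoplasmic reticulum (ER) chaperone BiP, encoded by Hspa5, is controlled by the unfolded protein response. Warm enzymatic digestion and sorting are themselves known to switch on stress genes in brain macrophages.

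Promoter sequence was at hand for 7 of the 10 genes, in 10 windows of mouse build GRCm38.p6 from RefSeq, the others being Hspa8, Hsp90aa1 and Hsp90ab1. The 250 bases before the start were searched on both strands in these and in all 32851 windows. GAANNTTC was present in 6.69% of all windows, TTCNNGAA in 7.17% and GAANNTTCNNGAA in 0.466%. A run of 4 units, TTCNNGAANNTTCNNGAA, which contains the shorter motifs, was present in 0.0122%, and the ER stress response element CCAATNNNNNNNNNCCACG in 0.113%. These matches describe letters in a window and are not evidence of binding.

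Hspa1a and Hspa1b encode the stress-inducible HSP70 and are near-identical neighbours on chromosome 17. Their upstream stretches are shown because the pair shares promoter as well as transcript sequence: the stretches chr17:34972157-34972406 (Hspa1a) and chr17:34959239-34959488 (Hspa1b), both on the minus strand and written 5′ to 3′, differed at 3 of 250 bases. Capitals mark GAANNTTC, which begins 104 bases before the start in each, and no exon overlaps either stretch in the GENCODE M21 annotation.
Hspa1a: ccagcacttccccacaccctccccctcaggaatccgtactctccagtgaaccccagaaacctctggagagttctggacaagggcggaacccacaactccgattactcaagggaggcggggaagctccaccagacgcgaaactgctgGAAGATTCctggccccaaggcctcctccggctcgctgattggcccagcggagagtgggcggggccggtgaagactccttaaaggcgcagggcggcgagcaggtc
Hspa1b: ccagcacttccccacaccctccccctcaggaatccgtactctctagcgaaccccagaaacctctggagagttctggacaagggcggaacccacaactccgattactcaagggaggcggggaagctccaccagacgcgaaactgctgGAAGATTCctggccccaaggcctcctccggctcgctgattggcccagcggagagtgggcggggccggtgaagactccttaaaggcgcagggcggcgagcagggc

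The divergent mitochondrial pair Hspe1 and Hspd1, the co-chaperone gene Hsph1 and the ER gene Hspa5 are shown as 30-base stretches around their match, with the motif in capitals and written 5′ to 3′. The Hspe1 stretch (chr1:55088053-55088082, plus strand) holds the 4-unit run, starting 89 bases before the Hspe1 start. The same letters lie in 1 of the 2 Hspd1 windows, 144 bases before that start, and the stretch is in exon 1 of 1 Hspd1 transcript. The Hsph1 stretch (chr5:149636351-149636380, minus strand) holds TTCNNGAA 54 bases before one annotated start and 33 before another, within exon 1 of 2 Hsph1 transcripts. The Hspa5 stretch (chr2:34772020-34772049, plus strand) holds the ER stress response element 65 bases before the start, within exon 1 of 1 Hspa5 transcript. None of these motifs was found in the 2 Dnajb1 windows, which says only that those letters are not in these bases.
Hspe1: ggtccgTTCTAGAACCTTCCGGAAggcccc
Hsph1: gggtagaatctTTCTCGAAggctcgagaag
Hspa5: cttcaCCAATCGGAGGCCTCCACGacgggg

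Library totals ranged from 9433960 to 13276081 counts. Levels are given as CPM, that is counts relative to the library total after TMM scaling over all 23 libraries, and errors are SDs over the libraries of a group. The 3 counts that a count of 0 allows corresponded to 0.226 to 0.318 CPM, and the lowest member count was 62 (Hspa1a, tdT+ F3). The sort labels matched their markers: 5 microglia markers summed to 15923 to 24335 CPM in MG and 1043 to 1920 in sdCAMs, and 5 CNS-associated macrophage markers to 6.47 to 45.6 CPM in MG and 8715 to 14545 in sdCAMs. The BLZ945 F2 libraries stood apart in that their 10 most abundant genes took 14.3% (MG), 17.8% (tdT-) and 16.6% (tdT+) of the counts, the highest share in each group. These are bulk samples, so fewer cells with a transcript and less of it per cell cannot be told apart.

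All 10 genes were detected in every library and passed the filter on low counts in every fit. Together they took 0.481% to 0.661% of the counts as group means. Per kb of merged exon (GENCODE M21), Hspa5 stood highest at a mean of 709 CPM per kb over the 23 libraries, followed by Hsp90ab1 (359), Hspa8 (206), Dnajb1 (78.1), Hspe1 (66.5), Hspd1 (51.9), Hsp90aa1 (36.5), Hspa1b (9.90), Hspa1a (9.60) and Hsph1 (4.80). The ER, constitutive HSP90 and constitutive HSP70 genes thus led, and the inducible HSP70 genes with the HSP110 gene Hsph1 came last. The last place of Hsph1 rests on its merged exon length of 7266 bases, against 2967 for Hspa1a and 2803 for Hspa1b. In CPM its group means were 31.0 to 37.4, above those of Hspa1a (24.5 to 32.9) in every group. Hspa5, Hsp90ab1 and Hspa8 each exceeded the next gene in 23 of 23 libraries, while Hspa1b exceeded Hspa1a in only 14 of 23, Hspe1 exceeded Hspd1 in 17 and Dnajb1 exceeded Hspe1 in 19. Over the 23 libraries these neighbours overlapped, and the order of their means differed between groups. Dnajb1 exceeded Hspe1 in 10 of 10 MG libraries, with means of 97.3 against 77.8 CPM per kb in CTL and 99.0 against 60.1 in BLZ945. Its mean was the lower one in tdT- BLZ945 (54.8 against 59.7) and tdT+ BLZ945 (57.5 against 71.6). Even there Dnajb1 exceeded Hspe1 in 3 of 5 and 2 of 3 libraries, and F2 held the lowest Dnajb1 value of both groups. Hspe1 exceeded Hspd1 in 9 of 10 MG libraries and in 5 of 10 tdT- libraries. Hspa1b was above Hspa1a as a mean in MG CTL (14.4 against 10.9) and below it in tdT- CTL (9.49 against 11.1), with the split of their reads uncertain.

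Some of these levels depend on how reads that match several genes were counted, which is not stated in the sources used here. Windows of 50 bases were taken from each gene's annotated transcripts (GENCODE M21) and sought in the transcripts of other genes, on the sense strand only. Of these, 60.4% of Hspa1a and 62.3% of Hspa1b occur in another gene, nearly all of them in the partner, so the split between the pair is uncertain. Near-copies elsewhere in the annotation share windows with Hsp90aa1 (47.5%), Hspd1 (39.7%), Hspa8 (38.6%) and Hspe1 (18.4%). Hsp90ab1 (3.44%) and Dnajb1 (0.38%) shared few windows, and Hspa5 and Hsph1 had 0% shared.

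**Figure D1:**
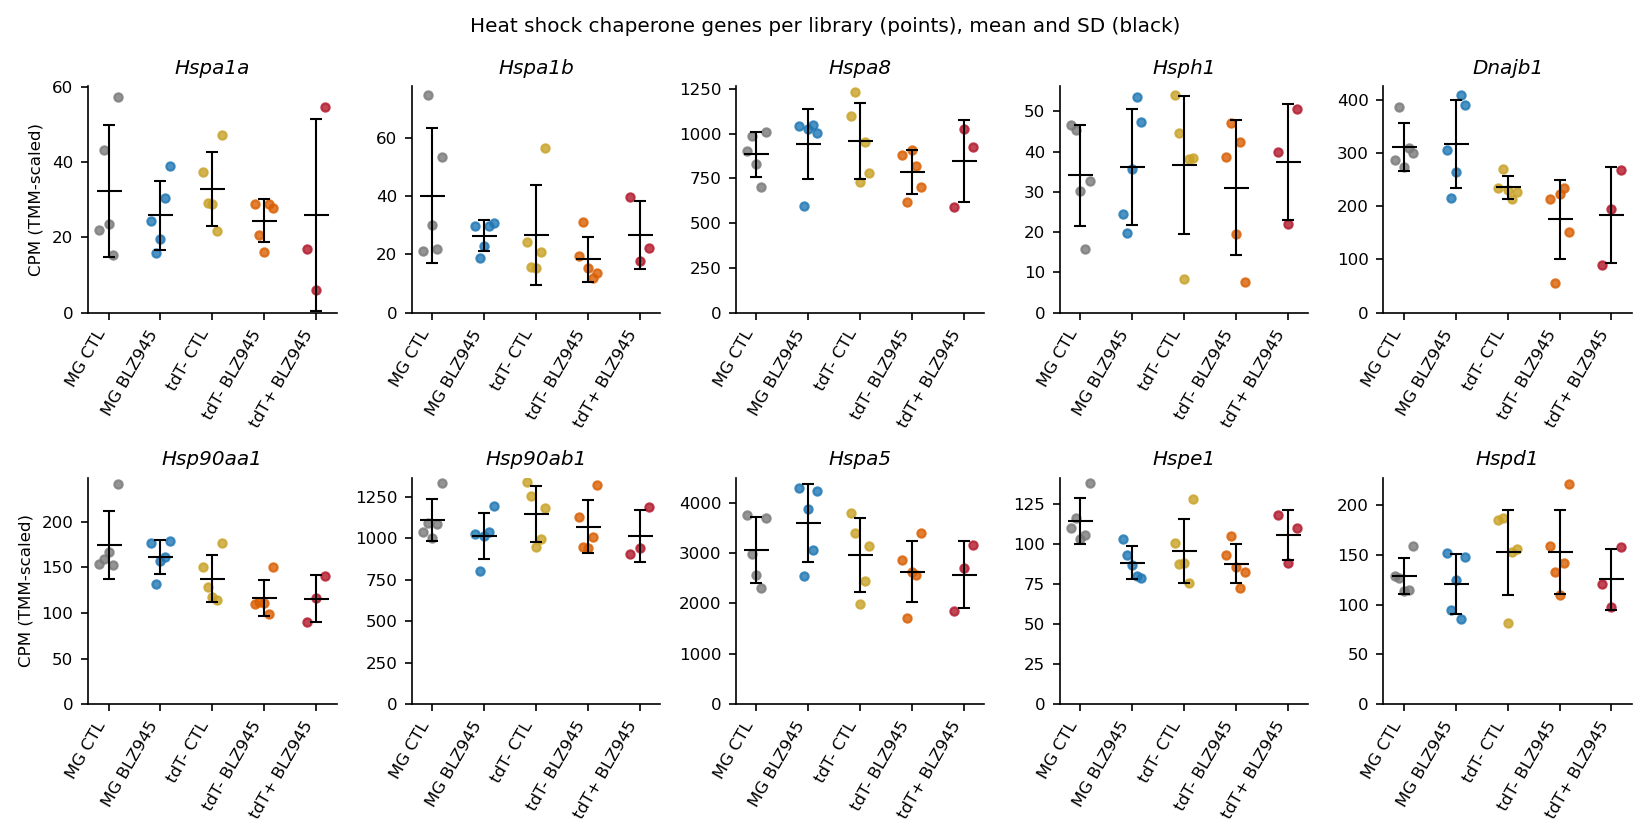
Level of each chaperone gene (CPM, linear axis from 0, one panel per gene) in each of the 23 libraries (points) by group, with the group mean and SD. Dnajb1 is the gene whose tdT- CTL libraries (214 to 271.2 CPM) lie wholly below the MG CTL libraries (273.5 to 387 CPM).

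The cytosolic HSP70 machinery was led by Hspa8, which encodes the constitutive HSC70. In every sentence that lists values, the order is F1, F2, F3, M1, M2 (F2, F3, M2 for tdT+). Hspa8 in MG stood at 901, 988, 831, 701 and 1008 CPM in CTL and at 1042, 594, 1028, 1049 and 1005 CPM in BLZ945. In tdT- sdCAMs, Hspa8 was at 1100.2, 1234, 732, 952 and 778 CPM in CTL and at 883, 616, 908, 817 and 702 CPM in BLZ945. The 3 tdT+ libraries held 589.9, 1027 and 924 CPM of Hspa8. All 5 groups overlapped, and the BLZ945 F2 library was the lowest of its group in MG, tdT- and tdT+ alike. Group means lay between 785 and 959 CPM.

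Hspa1a and Hspa1b, which are low in unstressed cells, varied more. Hspa1a in MG was at 22.0, 43.4, 23.4, 15.3 and 57.4 CPM in CTL and at 24.3, 15.9, 19.5, 30.4 and 39.0 CPM in BLZ945. In tdT- sdCAMs, Hspa1a was at 37.3, 29.2, 28.9, 21.7 and 47.4 CPM in CTL and at 29.0, 20.7, 16.1, 28.8 and 27.7 CPM in BLZ945. The tdT+ libraries spread from F3 to M2, with 17.0, 6.14 and 54.8 CPM. M2 held the most Hspa1a in 4 of the 5 groups, and every group overlapped every other.

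Hspa1b in MG was at 21.2, 74.7, 30.1, 22.0 and 53.4 CPM in CTL, with F2 and M2 high, and at 29.7, 18.8, 23.04, 29.9 and 30.8 CPM in BLZ945. In tdT- sdCAMs, Hspa1b was at 24.4, 15.6, 15.5, 20.9 and 56.7 CPM in CTL and at 19.4, 31.2, 15.3, 11.9 and 13.7 CPM in BLZ945. The tdT+ libraries held 39.9, 17.6 and 22.3 CPM. Group means ran from 40.3 ± 23.2 CPM in MG CTL to 18.3 ± 7.72 CPM in tdT- BLZ945, a 2.202-fold range, and the groups overlapped. Since the split of reads within the pair is uncertain, the sum of both genes is also given, and its group means ran from 42.8 to 72.6 CPM, a 1.70-fold range that was below the 1.81-fold range of Dnajb1.

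Hsph1 encodes HSP110, a nucleotide exchange factor that resets HSP70. In MG, Hsph1 was at 46.5, 45.3, 30.1, 15.7 and 32.7 CPM in CTL and at 24.4, 19.9, 35.7, 53.6 and 47.2 CPM in BLZ945. In tdT- sdCAMs it was at 53.9, 44.6, 8.30, 38.2 and 38.4 CPM in CTL and at 38.5, 47.1, 19.5, 42.3 and 7.58 CPM in BLZ945, and the tdT+ libraries held 39.9, 22.0 and 50.5 CPM. Single libraries set the extremes, tdT- CTL F3 and tdT- BLZ945 M2, while the group means stayed between 31.0 and 37.4 CPM.

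Dnajb1 encodes HSP40, the inducible J-domain partner that starts the HSP70 cycle. In MG, Dnajb1 was at 287, 387, 273.5, 309.7 and 301 CPM in CTL and at 305, 215, 265, 409 and 391 CPM in BLZ945. In tdT- sdCAMs, Dnajb1 was at 235, 271.2, 231, 214 and 227.2 CPM in CTL and at 214, 55.9, 223, 234 and 151 CPM in BLZ945. The tdT+ libraries held 89.3, 194 and 269 CPM. The CTL populations did not overlap, whereas in BLZ945 mice 2 tdT- libraries (F3 and M1) exceeded MG F2. The lowest values of both BLZ945 sdCAM groups came from F2.

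Of the HSP90 pair, Hsp90aa1 is the inducible form and Hsp90ab1 the constitutive one. In MG, Hsp90aa1 was at 154, 159.6, 166, 153 and 241 CPM in CTL and at 177, 132, 157, 161 and 179 CPM in BLZ945. In tdT- sdCAMs, Hsp90aa1 was at 151, 129, 118, 114 and 176 CPM in CTL and at 109.6, 112, 111, 98.6 and 151 CPM in BLZ945, and the tdT+ libraries held 89.8, 117 and 141 CPM. In BLZ945 mice, 4 of the 5 tdT- libraries lay below every MG library, and the exception, M2, exceeded MG F2 only. Hsp90ab1 was the steadiest of the 10 across groups, with means from 1013 to 1147 CPM, a 1.13-fold range, and single libraries from 804 to 1340.4 CPM.

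Hspa5 encodes BiP, the HSP70 of the ER. In MG, Hspa5 was at 3746, 2974, 2567, 2300.5 and 3695 CPM in CTL and at 4289, 2539, 3883, 3051 and 4224 CPM in BLZ945. In tdT- sdCAMs, Hspa5 was at 3805, 3389.9, 1981, 2453 and 3144 CPM in CTL and at 2857, 1706, 2622, 2574 and 3404 CPM in BLZ945, and the tdT+ libraries held 1843, 2713 and 3159.9 CPM. The groups overlapped, with F2 the lowest library of all 3 BLZ945 groups.

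Hspe1 and Hspd1 encode HSP10 and HSP60, the lid and the barrel of the mitochondrial chaperonin. In MG, Hspe1 was at 110.2, 116, 103, 106 and 139 CPM in CTL and at 104, 93.1, 87.2, 80.3 and 78.8 CPM in BLZ945. In tdT- sdCAMs, Hspe1 was at 101, 87.6, 88.2, 75.5 and 128 CPM in CTL and at 93.7, 105, 85.7, 72.6 and 82.9 CPM in BLZ945, and the tdT+ libraries held 118, 88.1 and 110.2 CPM. The MG groups met only where BLZ945 F1 exceeded CTL F3. Hspd1 averaged 129 ± 18.2 CPM in CTL and 121 ± 30.1 CPM in BLZ945 MG, 153 ± 42.8 CPM in CTL and 153 ± 42.0 CPM in BLZ945 tdT- sdCAMs, and 126 ± 30.5 CPM in tdT+ sdCAMs (SD, n = 5 and n = 3 for tdT+), with all groups overlapping.

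The spread between libraries of a group, expressed as edgeR's biological coefficient of variation (BCV), was widest for the least abundant members. Among MG libraries the BCV was 0.351 for Hspa1a, 0.328 for Hspa1b and 0.319 for Hsph1, against a median of 0.203 over all genes tested. These BCVs were 1.73, 1.69 and 1.66 times the value fitted for genes of the same abundance. The other 7 genes had BCVs from 0.138 (Hspe1) to 0.198 (Hspa5) in MG, all below that median. In sdCAM libraries the spread was wider for each of the 10 genes, from 0.187 (Hsp90ab1) to 0.536 (Hsph1), and it was wider for genes at large, with a median of 0.509. Dnajb1 reached 0.368 there, 1.45 times the value for its abundance. Between single libraries the relative range was 9.35-fold for Hspa1a counted alone, but 4.97-fold for the sum of Hspa1a and Hspa1b (23.8 to 118 CPM), which was less than for Dnajb1 (7.32-fold) and Hsph1 (7.12-fold). It was narrowest for Hsp90ab1, at 1.67-fold.

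**Figure D2:**
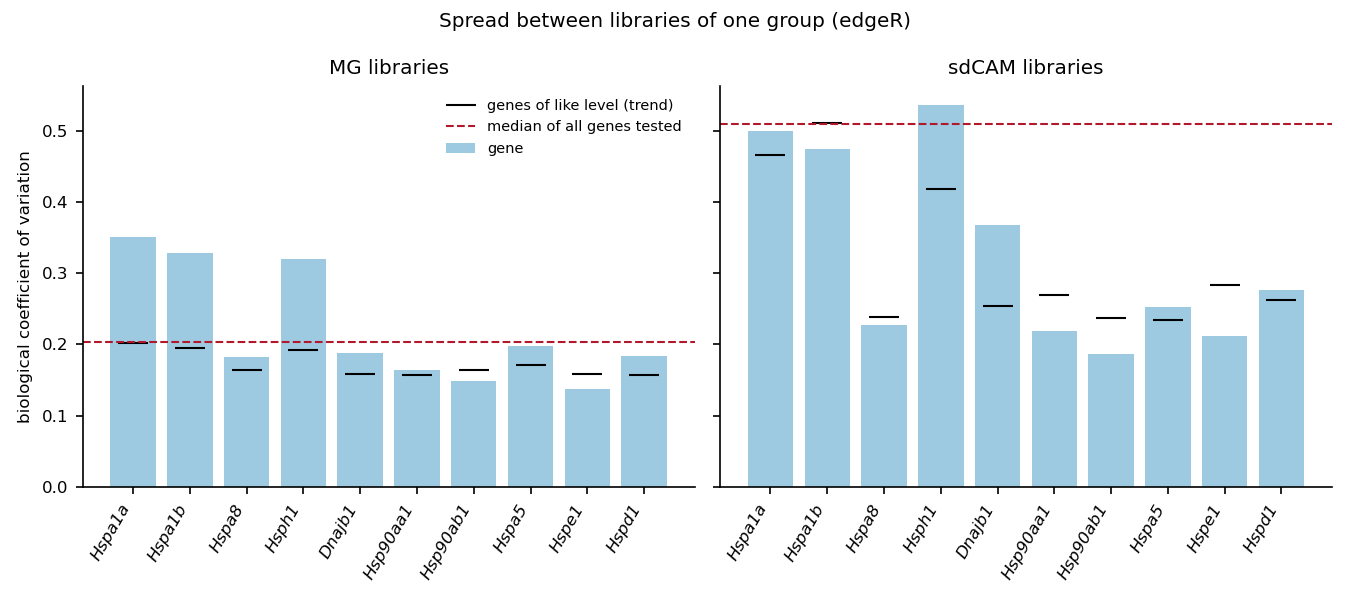
Biological coefficient of variation (vertical axis, a ratio) of each chaperone gene among MG and among sdCAM libraries as bars from 0, with the value fitted for genes of the same abundance (black dash) and the median of all genes (red dashed line). In MG only Hspa1a, Hspa1b and Hsph1 stand above the all-gene median of 0.203.

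Libraries were often high or low in many members at once. MG BLZ945 F2 held the lowest value of its group for 8 of the 10 genes, and its median deviation from the group mean was -0.46 on the log2(CPM + 1) scale. The tdT- CTL F3 library was below its group mean for 10 of 10 genes and lowest for 6, and MG CTL F3, from the same animal, was below the mean for 10 as well. MG CTL M2 was highest in its group for 6 genes, tdT- CTL M2 for 4 and tdT+ BLZ945 M2 for 7. The BLZ945 F2 libraries did not behave alike in all populations, since tdT- F2 was lowest for 3 genes (Hspa8, Hspa5, Dnajb1) and highest for 3 others (Hspa1b, Hsph1, Hspe1).

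**Figure D3:**
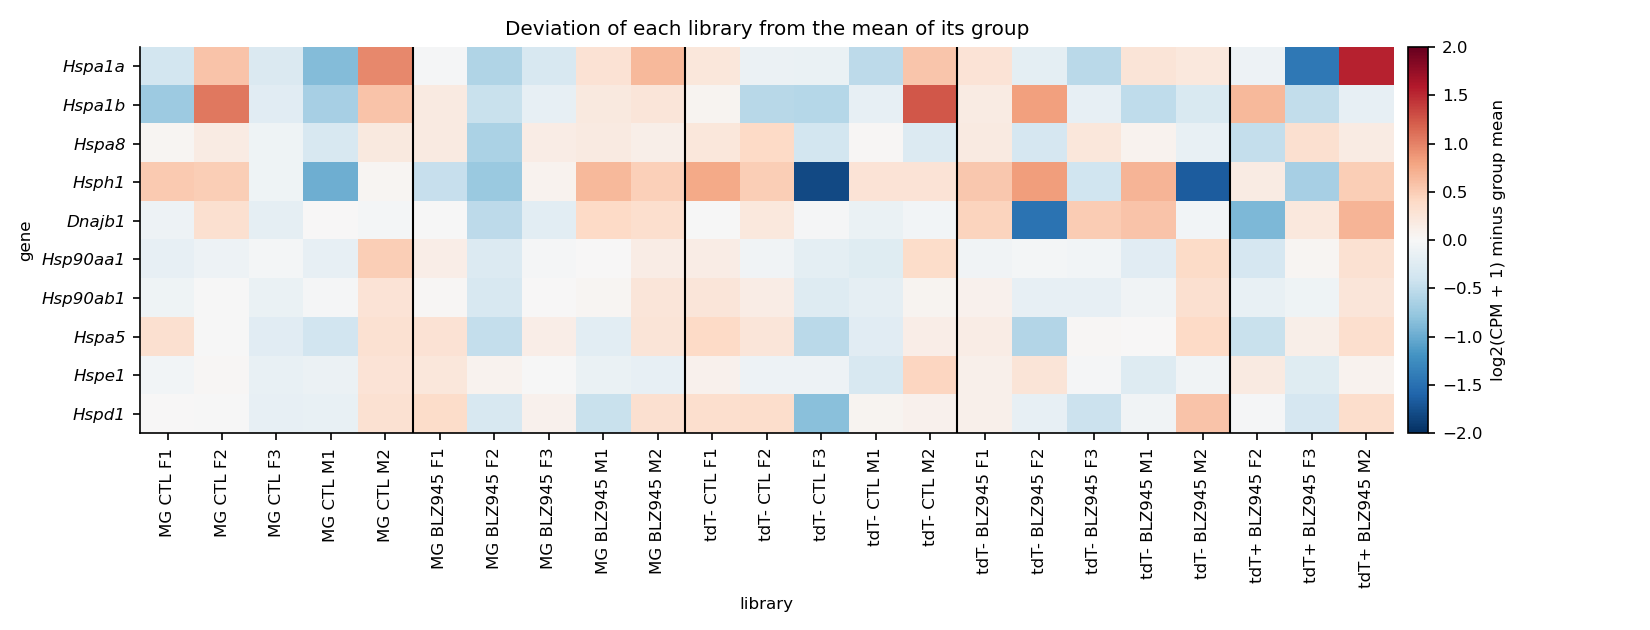
Deviation of each chaperone gene (vertical axis) in each library (horizontal axis, by group) from its group mean on the log2(CPM + 1) scale, with colours limited to -2 and 2. MG BLZ945 F2 is below its mean for 9 of 10 genes, and tdT- CTL F3 for 10 of 10.

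The first comparison asked whether chaperone expression differed between repopulated and vehicle MG after stroke. By edgeR's quasi-likelihood test with Benjamini-Hochberg adjustment, 0 of 10 chaperone genes were called at an adjusted p under 0.05, where 0.408% of all 11264 genes tested were. At an unadjusted p under 0.05 there was 1 gene, Hspe1, beside 13.2% of all genes, and DESeq2 called 0 of 10, beside 2.16% of all genes. Hspe1 was at 115 ± 14.2 CPM in CTL and 88.6 ± 10.1 CPM in BLZ945, with a log2 fold change of -0.39 (SE 0.11, 95% interval -0.63 to -0.15, adjusted p = 0.154). Of the others, 4 were higher and 5 lower in BLZ945, and the median over the 10 genes was -0.12 beside 0.00 over all genes. The interval for Hsp90ab1 ran from -0.39 to 0.11, and that for Hspa1b from -1.25 to 0.01.

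For tdT- sdCAMs the same treatment comparison called 0 of 10 chaperone genes, and 0% of 13076 genes tested. No chaperone gene had an unadjusted p under 0.05, beside 5.33% of all genes, and DESeq2 called 0 of 10, beside 0.431%. Of the 10, 9 were lower in BLZ945 and 1 was higher, with a median log2 fold change of -0.24 beside -0.00 over all genes. The lowest p belonged to Hspa8 (log2 fold change -0.28, SE 0.19, 95% interval -0.68 to 0.12, adjusted p = 0.998). The difference of the treatment effect between these populations was tested as an interaction, which also called 0 of 10, where 0.0394% of 12697 genes were called. In that test 0 had an unadjusted p under 0.05 (8.69% of all genes) and DESeq2 called 0 (0.741% of all genes). Hspa8 again had the lowest p (difference of log2 fold changes -0.38, SE 0.24, adjusted p = 0.706).

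Whether labelled sdCAMs differed from unlabelled ones was asked against both tdT- groups, and these comparisons share the tdT+ libraries with each other and their tdT- libraries with the treatment comparison. Against tdT- BLZ945, 0 of 10 chaperone genes were called (0.206% of 13076 genes), with 6 higher and 4 lower in tdT+. That comparison was unpaired, since its tdT- group includes replicates without a tdT+ library. Hspe1 had the lowest p (log2 fold change 0.25, SE 0.19, 95% interval -0.17 to 0.66, adjusted p = 0.931). Against tdT- CTL, 0 of 10 were called (0.283% of 13076 genes), with 2 higher and 8 lower. There the lowest p was that of Hsp90aa1 (log2 fold change -0.25, SE 0.21, 95% interval -0.69 to 0.19, adjusted p = 0.922). In both, 0 chaperone genes had an unadjusted p under 0.05, beside 6.91% and 7.44% of all genes, and DESeq2 called 0, beside 1.02% and 1.39%. With 3 tdT+ libraries the intervals were wide, for example -0.92 to 1.44 for Hsph1 and -0.75 to 0.86 for Dnajb1 in the first of these comparisons.

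Between the populations, Dnajb1 and Hsp90aa1 were lower in tdT- sdCAMs than in MG of the same BLZ945 mice. Dnajb1 was at 176 ± 74.2 CPM in tdT- and 317 ± 82.3 CPM in MG (SD, n = 5 each), that is 0.558 times the MG level with a 95% interval of 0.385 to 0.807 (log2 fold change -0.84, SE 0.26, adjusted p = 0.0149). Hsp90aa1 was at 116 ± 20.1 CPM in tdT- and 161 ± 18.8 CPM in MG, 0.727 times the MG level with an interval of 0.581 to 0.909 (log2 fold change -0.46, SE 0.16, adjusted p = 0.0268). DESeq2 called the same 2 genes, beside 36.6% of all genes, and 3 of 10 had an unadjusted p under 0.05 in edgeR, beside 41.7%. They were 2 of 10, where 32.4% of the 12697 genes tested were called in either direction and 14.1% were called lower in tdT-, so the count itself is no result about chaperone genes. Fitted with the animal as a block, which called 32.2% of all genes, the comparison also called Hspa5 (log2 fold change -0.45, adjusted p = 0.00455 with the block, 0.101 without). Without tdT- F2, the library with 55.9 CPM, the Dnajb1 difference was -0.62 and still called, whereas the Hsp90aa1 call was lost without MG F1, MG M2 or tdT- M1 (adjusted p = 0.0604, 0.0657 and 0.0615) and without both BLZ945 M1 libraries (0.0927).

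In CTL mice the same population comparison called 0 of 10 chaperone genes, where 25.6% of 12697 genes tested were called. At an unadjusted p under 0.05 there was 1 gene, Hsp90aa1, beside 35% of all genes, while DESeq2 called 0, beside 29.4%. The direction was 5 higher and 5 lower. Hsp90aa1 was at 138 ± 25.9 CPM in tdT- and 175 ± 37.6 CPM in MG (log2 fold change -0.34, SE 0.15, adjusted p = 0.124). With the animal as a block, which called 24.8% of all genes, Hsp90aa1 was called (log2 fold change -0.33, adjusted p = 0.0408). Dnajb1 was at 236 ± 21.4 CPM in tdT- and 312 ± 44.3 CPM in MG without overlap, as were 26.8% of all genes tested, but its log2 fold change of -0.40 (SE 0.25) had an adjusted p of 0.296 in a fit that shares its estimate of spread with the BLZ945 libraries. Without the BLZ945 F2 libraries in that fit, Dnajb1 was called in CTL at the same log2 fold change (-0.40, adjusted p = 0.0382). Leaving out tdT- CTL M2 called Hspa1b, Hsp90aa1 and Hspe1.

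The tdT+ sdCAMs against MG of BLZ945 mice gave 0 of 10 chaperone genes called, where 18.9% of 12868 genes were. At an unadjusted p under 0.05 there was 1 of 10 (Hsp90aa1), beside 31.4% of all genes, and DESeq2 called 0, beside 24.4%. Hsp90aa1 was at 116 ± 25.6 CPM in tdT+ (log2 fold change -0.47, SE 0.19, adjusted p = 0.101). With the animal as a block (15.1% of all genes called), Hsp90aa1 (log2 fold change -0.51, adjusted p = 0.0475) and Hspa5 (-0.44, adjusted p = 0.0192) were called. This comparison shares its MG libraries with the tdT- comparison in BLZ945 mice.

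**Figure D4:**
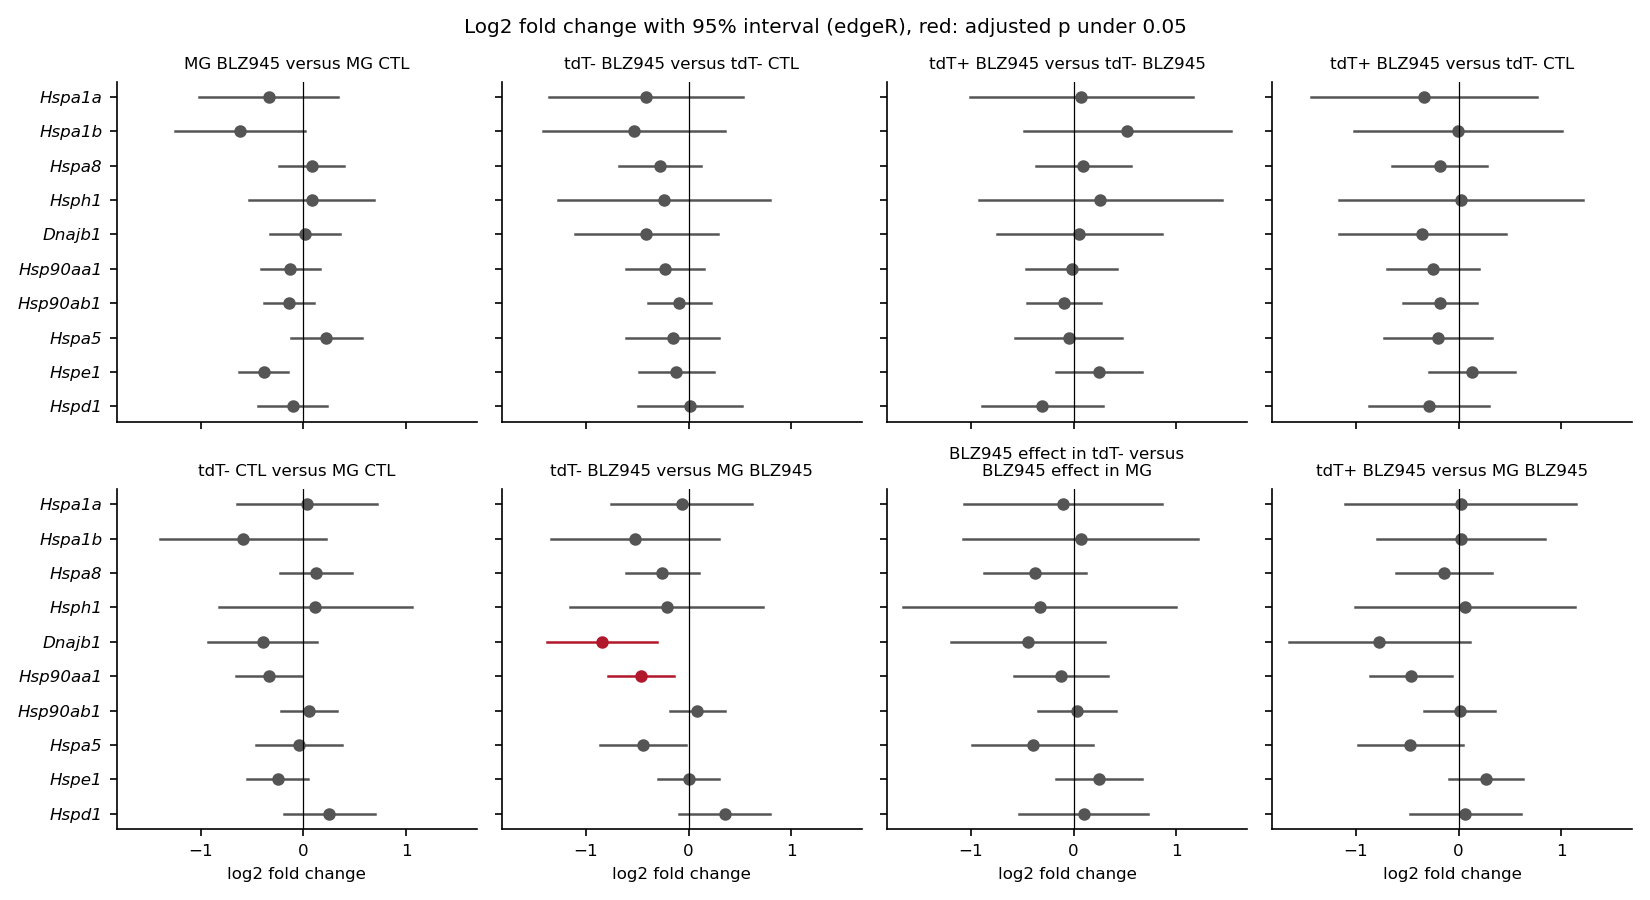
Log2 fold change (horizontal axis) with its 95% interval for the 10 chaperone genes in the 8 comparisons, one panel each, with genes called at an adjusted p under 0.05 in red. Red appears in 1 panel, tdT- BLZ945 versus MG BLZ945, for Dnajb1 (-0.84) and Hsp90aa1 (-0.46).

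Differences taken within each CTL animal or BLZ945 replicate, as log2 ratios of CPM, show how far the populations differed in cells sorted from the same brains. They come from the same libraries as the tests above and are a description. The share of all genes with the same direction in every animal or replicate was not computed. Dnajb1 was lower in tdT- sdCAMs than in MG in 5 of 5 CTL animals (differences of -0.53 to -0.25) and in 5 of 5 BLZ945 replicates (-1.95 to -0.25), with F2 at -1.95. Hsp90aa1 was lower in 5 of 5 CTL animals (-0.50 to -0.03) and in 5 of 5 BLZ945 replicates (-0.71 to -0.24). Hspa5 was lower in 2 of 5 CTL animals (-0.37 to 0.19) and in 5 of 5 BLZ945 replicates (-0.59 to -0.25). Hspe1 was lower in 5 of 5 CTL animals (-0.48 to -0.11) and 3 of 5 BLZ945 replicates (-0.15 to 0.17). Hspd1 leaned the other way, above MG in 3 of 5 CTL animals (-0.48 to 0.56, median 0.41) and 4 of 5 BLZ945 replicates (-0.18 to 0.72, median 0.49). Hspa8 was above MG in 3 of 5 CTL animals (-0.37 to 0.44) and below it in 4 of 5 BLZ945 replicates (-0.52 to 0.05), and Hspa1a, Hspa1b, Hsp90ab1 and Hsph1 lay on both sides under both treatments. In the 3 replicates with tdT+ cells, the tdT+ libraries were below MG in 3 of 3 for Hspa5 (-0.52 to -0.42), Hsp90aa1 (-0.56 to -0.34), Dnajb1 (-1.27 to -0.45) and Hspa8 (-0.12 to -0.00, differences near 0). Hspe1 was above MG in 3 of 3 (0.02 to 0.48), and the other 5 genes lay on both sides. An interaction between treatment and population was tested above for all of these genes, and it called 0 of 10.

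**Figure D5:**
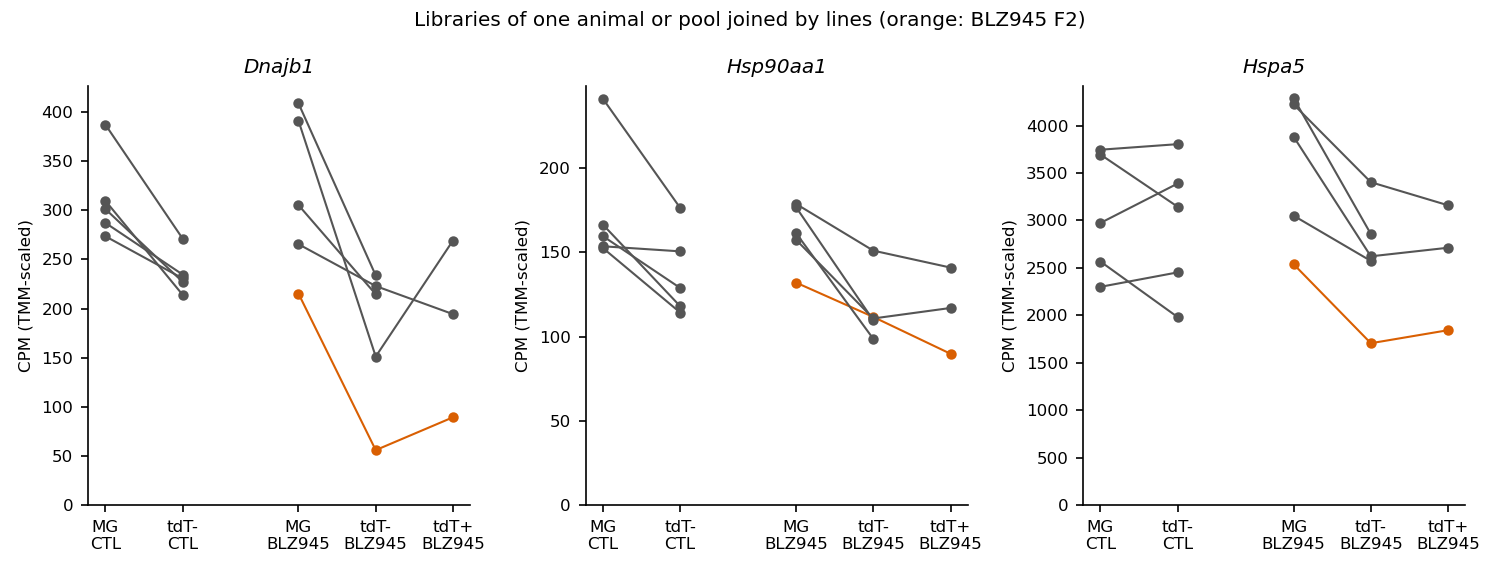
Levels (CPM, linear axis from 0) of Dnajb1, Hsp90aa1 and Hspa5 in the populations of each CTL animal or BLZ945 replicate, joined by lines, with BLZ945 F2 in orange. The lines for Dnajb1 and Hsp90aa1 go down from MG to tdT- in 5 of 5 CTL animals and 5 of 5 BLZ945 replicates. The share of all genes that do so was not computed.

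Pairs of chaperone genes differed in how closely they varied across libraries. Over the 23 libraries, as deviations from group means, Spearman correlations of the 45 pairs ranged from -0.28 to 0.82 with a median of 0.33. The closest were Hspa5 with Hsp90ab1 (0.82), Hspa5 with Hspd1 (0.80), Hsp90ab1 with Hspd1 (0.78) and Hsp90aa1 with Hsp90ab1 (0.76). Hspa1a and Hspa1b, which share much sequence, stood at 0.59, and the chaperonin partners Hspe1 and Hspd1 at 0.29. Dnajb1 with Hspe1 (-0.28), Hspa8 with Hspe1 (-0.09) and Hspa1b with Dnajb1 (-0.07) were among the 4 pairs below 0. Pairs of other genes were not computed, and these are descriptions, since libraries share animals and each library's depth and scaling enter all its genes. Between MG and tdT- sdCAMs of the same 10 animals or replicates, the correlation was 0.81 for Hspa5, 0.68 for Hspe1 and 0.66 for Hspa1a, and it was near or below 0.2 for Hsph1 (0.15) and Hspa1b (-0.20).

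A profile was formed as the mean of 4 inducible genes, Hspa1a, Hspa1b, Dnajb1 and Hsph1, without Hsp90aa1. These 4 correlated with each other at -0.07 (Hspa1b with Dnajb1) to 0.59 (Hspa1a with Hspa1b). By Spearman correlation of deviations over the 23 libraries, 8925 other genes with an average log2 CPM of at least 3 were ranked. The most like the profile were Rusc2 (0.81), Ptges3 (0.78), Trim3 (0.74), Ankrd17 (0.73) and Taf11 (0.71). As the highest of 8925 values they are high by selection, and the level reached by chance was not computed. Ptges3 encodes p23, a co-chaperone of HSP90. The median over all 8925 was 0.02. By list, the median was 0.44 for the 8 subunits of the cytosolic chaperonin TRiC/CCT, 0.28 for 18 ER chaperones and folding enzymes, 0.18 for 21 HSP70 and HSP90 co-chaperones and 0.13 for 4 other HSP70 and HSP110 genes. It was near that of all genes for 10 mitochondrial chaperones and proteases (0.05), 10 J-domain genes (0.03), 2 heat shock factor genes (0.01) and 7 ER stress factors (-0.01), while 1 small heat shock protein gene stood at -0.25 and 17 immediate early genes at -0.21.

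The wider chaperone network was read from lists of heat shock factors, other HSP70 genes, J-domain genes, co-chaperones, small heat shock proteins, TRiC/CCT, ER chaperones, ER stress factors and mitochondrial chaperones. In both treatment comparisons, both tdT+ to tdT- comparisons and the interaction, edgeR called 0 of the 87 to 90 list genes tested. Between tdT- sdCAMs and MG, 3 of 89 were higher and 6 lower in CTL mice (10.1% called), and 9 were higher and 8 lower in BLZ945 mice (19.1%), beside 25.6% and 32.4% of all genes. Between tdT+ sdCAMs and MG, 3 of 90 were higher and 2 lower (5.56%), beside 18.9% of all genes. With the animal as a block the calls came to 18 of 89 in CTL mice, 24 of 89 in BLZ945 mice and 9 of 90 for tdT+, beside 24.8%, 32.2% and 15.1% of all genes. J-domain genes (11), small heat shock proteins (5) and mitochondrial chaperones and proteases (10) each had 1 gene higher and 1 lower in tdT- BLZ945 than in MG BLZ945, and the block called 2, 2 and 1 genes of these lists. In BLZ945 mice the co-chaperones called were all higher in tdT- cells, namely 4 of 22, beside 2324 of all 12697 genes called higher there. The count is therefore no result about co-chaperones. Among the 4 was St13, which encodes the HSP70-interacting protein Hip (log2 fold change 0.50, adjusted p = 0.000763). Hspa4, an HSP110 relative of Hsph1, was lower (-0.66, adjusted p = 0.0131).

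ER genes were called in both directions. Of 18 ER chaperones and folding enzymes, 1 was higher and 3 lower in tdT- BLZ945 than in MG BLZ945, beside 32.4% of all genes called. Those lower included Herpud1, which acts in degradation of ER proteins (log2 fold change -1.04, adjusted p = 2.86e-05), and Hsp90b1, the HSP90 of the ER (-0.47, adjusted p = 0.0104), while Sil1, an exchange factor of BiP, was higher (0.46, adjusted p = 0.024). In CTL mice 1 of 18 was called, beside 25.6% of all genes, namely Sdf2l1, which was lower (-0.39, adjusted p = 0.0332). These counts depend on the pairing, since the fit with the animal as a block called 8 of 18 in CTL mice, beside 24.8% of all genes, and 8 of 18 in BLZ945 mice, beside 32.2%. It also called 3 of 7 ER stress factors in BLZ945 mice (32.2% of all genes), where 1 was called without it (32.4%). Atf4, a transcription factor of the integrated stress response, was lower in tdT- cells in CTL (-0.51, adjusted p = 0.0332) and BLZ945 mice (-0.71, adjusted p = 0.00324). The TRiC/CCT subunits Cct6a (-0.50) and Cct4 (-0.43) were lower in tdT- CTL (adjusted p = 0.044 and 0.048), that is 2 of 8 beside 25.6% of all genes. The block called 3 of 8 subunits there and 2 of 8 in BLZ945 mice, where 0 were called without it, beside 24.8% and 32.2% of all genes with the block. Hsbp1, which encodes a protein that binds HSF1, was higher in tdT- cells in CTL (0.49, adjusted p = 0.0199) and BLZ945 mice (1.17, adjusted p = 3.99e-06).

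Immediate early genes, which are known to be switched on by digestion and sorting as well as by injury, were also counted. Of 17, 8 were higher and 0 lower in tdT- than in MG of CTL mice, and 7 were higher and 2 lower in BLZ945 mice (47.1% and 52.9% called, beside 25.6% and 32.4% of all genes). Klf4 was higher by 2.53 and 2.12 on the log2 scale (adjusted p = 2.05e-06 and 1.63e-05). Dusp1 was higher by 2.01 and 1.30 (adjusted p = 2.66e-05 and 0.00201). Between tdT+ and MG, 4 of 17 were higher (23.5%, beside 18.9% of all genes). In the treatment comparisons 0 of 17 were called.

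Markers of some other brain cells also moved with the population contrast. The 5 neuron markers summed to 94.0 to 248 CPM in sdCAM libraries and 4.62 to 17.2 CPM in MG, with none of them at 0 throughout a group, and the 5 astrocyte markers to 49.5 to 261 and 4.74 to 13.0 CPM. The 5 fibroblast markers summed to 15.3 to 62.9 CPM in sdCAMs and 0.153 to 2.22 in MG, with Col3a1 at 0 in every tdT+ library. The 5 monocyte markers reached 217 CPM in 1 tdT- BLZ945 library and at most 45.8 CPM in tdT+, where Chil3 was at 0. The part of these cells, and of the immediate early genes, in the Dnajb1 and Hsp90aa1 differences was not tested.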

How the data were processed

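RNA of sorted cells was made into SMART-seq libraries, and the authors deposited whole-number read counts per gene. The submitters' processing notes name bcl2fastq 2.20, STAR 2.7.11a, featureCounts 2.0.6 and DESeq2 1.46.0. The genome build, strand setting and handling of multi-mapping reads were not given clearly in the sources used here. Testing used edgeR 4.0.16 under R 4.3.3 (TMM factors, filterByExpr, glmQLFit and glmQLFTest), with Benjamini-Hochberg adjustment over all genes tested, and called at an adjusted p under 0.05. DESeq2 1.42.0, other scalings and filters, blocks and libraries left out were alternatives. MG and tdT- libraries were fitted together (20 libraries), and the 10 MG, the 13 sdCAM and the 13 BLZ945 libraries on their own. The same labels within a treatment name the same animals, and deviations of same-animal libraries correlated at 0.029 to 0.183. Libraries with the same label but different animals correlated at 0.008 to 0.186 between the MG groups and at -0.080 to 0.043 between the tdT- groups. These ranges overlap. Simulated counts with known changes were used to test the fits. The genes and lists were chosen with earlier results of these data known. All members were to be named, with statistics for those called or with the lowest p, up to 3 called genes a list and the 5 genes most like the inducible members. Hspa5, Hspa1b, Hspe1 and Dnajb1 were named in other comparisons after their values were seen. Libraries of a group were separate samples, and no 2 agreed within sampling noise (lowest chi-square per gene 15.8).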

Additional observations from a re-analysis of the deposited data

Results flagged for a closer look

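Within groups of 5 libraries, a value was flagged when its gap to the nearest other library took an unusually large part of the group's range (Dixon's ratio). Chance flags about 1 in 20 groups, and 5 of 40 were flagged here. MG CTL M2 was flagged for both HSP90 genes, with 241 CPM of Hsp90aa1 and 1332 CPM of Hsp90ab1, above the other 4 MG CTL libraries. The tdT- BLZ945 M2 library was high in Hsp90aa1 at 151 CPM, and tdT- CTL M2 was high in Hspa1b at 56.7 CPM. MG BLZ945 F2 was low in Hspa8 at 594 CPM, where the other 4 libraries held 1005 to 1049 CPM. No difference of BLZ945 effect between the populations was called for a member.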

How the results depend on the processing

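Of 498 values recomputed under an alternative for 75 results, 471 kept direction and side of the threshold (or, for values without a test, moved by less than the spread), and 0 changed sign. These 75 were 50 group means and 8 counts, which cannot change sign, 12 fold changes and 5 correlations. Of all 80 member fold changes, 7 changed sign under the replicate block and 1 in DESeq2, all at most 0.07 in size in edgeR without the block and none called by either fit. The largest shift among these was Hspa1a in tdT+ versus tdT- BLZ945, from 0.07 to -0.24. For tdT- CTL versus MG CTL, where 0 members were called, library totals as the only scaling called 1 (Hsp90aa1, adjusted p = 0.0372), the replicate block 1 (Hsp90aa1, 0.0408), and leaving out the BLZ945 F2 libraries 1 (Dnajb1). Leaving out single libraries gave 0 to 3 there, the 3 without tdT- CTL M2. For tdT- BLZ945 versus MG BLZ945, where 2 were called, single libraries left out gave 1 to 3, and leaving out the BLZ945 M1 libraries gave 1 (Hsp90aa1 lost). Hspa5 was added under library totals (adjusted p = 0.0355), under the replicate block, and without MG BLZ945 F2 or tdT- BLZ945 M2. For tdT+ BLZ945 versus MG BLZ945, where 0 were called, library totals called 1 (Hsp90aa1, 0.0464) and the replicate block 2. The replicate block changed no other call of a member, but it called more of the other chaperone and stress genes (18 against 9, 24 against 17 and 9 against 5 in the same comparisons). Across treatments the labels share only a number, and the block called 0 members there too. Library totals shifted the median log2 fold change of all genes to -0.13 (tdT- versus MG, CTL), -0.17 (BLZ945) and -0.14 (tdT+ versus MG), and the share of calls that were higher went from 59.7% to 49.2%, from 56.5% to 44.4% and from 62.7% to 53.6%. Relative to those medians the Hsp90aa1 differences were close to the values in the report. DESeq2 called more genes in all than edgeR: 238 against 46 (MG, BLZ945 versus CTL), 56 against 0 (tdT-), 133 against 27 and 181 against 37 (tdT+ versus tdT- BLZ945 and CTL), and 94 against 5 for the interaction. Under Pearson correlation, 3 of the 5 genes most like the inducible members remained. The cause of these shifts was not tested. Each member had at least 62 counts in every library. With 3 tdT+ libraries, Dnajb1 at -0.77 against MG was not called (adjusted p = 0.223).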
